A study of Mus musculus with 12 samples.

Results

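The 10 genes described here encode subunits of the mitochondrial contact site and cristae organizing system (MICOS) and of its bridge to the outer mitochondrial membrane, with 2 related proteins of the intermembrane space. They were listed by mouse symbol as Immt, Chchd3, Chchd6, Apoo, Apool, Chchd2, Chchd10, Samm50, Dnajc11 and Mtx2 and were matched to Ensembl identifiers. All 10 were found among the 49548 genes counted, and all 10 passed the filter on low counts in each comparison. RNA was taken from the lumbar spinal cord of untreated mice aged 30 days, with 1 library per mouse. The 8 MFN2 mice (MitoCharc1, Tg(Eno2-MFN2*R94Q)L51Ugfm/J on a B6;D2 background) were hemizygous for a human MFN2 transgene with the R94Q mutation of Charcot-Marie-Tooth disease type 2A, driven by the rat Eno2 promoter mainly in neurons, and kept both copies of mouse Mfn2. The 4 WT mice were littermates per the study's methods, and the labels give them as C57BL/6. The libraries are known by their numbers. WT libraries were numbered 44 to 47, and MFN2 libraries 41 to 43 and 72 to 76, so that in the second run of numbers the run and the genotype cannot be told apart. Total counts ranged from 19359454 to 26738930 per library. Counts per library ranged from 68 to 152 for Apool, the gene with the fewest, and from 2409 to 4137 for Immt.

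MICOS sits at crista junctions, the narrow necks by which the folds of the inner mitochondrial membrane open to the space below the outer membrane. Immt (mitofilin) is its organizing core, Chchd3 and Chchd6 bind to it from the intermembrane space, and Apoo and Apool are membrane subunits of an apolipoprotein-like family. Contact with the outer membrane is made through Samm50, the channel-forming core of the machinery that inserts beta-barrel proteins, together with Mtx2 (metaxin) and the J-domain protein Dnajc11. Chchd2 and Chchd10 are paralogs that form complexes with each other in the intermembrane space, and mutations of the human genes are known in Parkinson's disease and in motor neuron disease, respectively. MFN2 itself fuses outer membranes and belongs to neither group.

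Chchd2, Chchd3, Chchd6 and Chchd10 share the twin CX9C fold, in which 4 cysteines at fixed spacing are joined by the disulfide relay of the intermembrane space. The coding stretch from the first to the last of these cysteines is shown for the 4 genes because it is the feature that joins them, and because likeness between paralogs bears on whether reads can be told apart. Coordinates are on GRCm38, the sequences were read 5′ to 3′ from the GENCODE M21 transcripts on the strand of the gene, and capitals mark the 4 cysteine codons. The stretch lies in the coding part of exon 3 of Chchd2-201 (minus strand, chr5:129882442-129882534), exon 3 of Chchd10-201 (plus strand, chr10:75937349-75937441), exon 7 of Chchd3-201 (minus strand, chr6:32803908-32804003) and exon 7 of Chchd6-201 (minus strand, chr6:89384622-89384717).
Chchd2: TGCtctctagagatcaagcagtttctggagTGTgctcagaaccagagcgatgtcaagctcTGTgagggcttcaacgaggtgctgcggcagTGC
Chchd10: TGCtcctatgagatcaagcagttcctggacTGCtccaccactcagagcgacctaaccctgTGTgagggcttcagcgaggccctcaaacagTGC
Chchd3: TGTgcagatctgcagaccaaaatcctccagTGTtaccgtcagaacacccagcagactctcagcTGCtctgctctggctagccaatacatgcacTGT
Chchd6: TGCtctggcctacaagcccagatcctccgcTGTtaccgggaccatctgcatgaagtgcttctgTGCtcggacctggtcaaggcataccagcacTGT

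Chchd2 and Chchd10 were identical at 71.0% of 93 bases of this stretch, with 9 codons between the inner cysteines. Chchd3 and Chchd6 were identical at 57.3% of 96 bases, with 10 codons between them. The longest run shared by the transcripts of a pair was 14 bases for Chchd2 and Chchd10, 13 bases for Chchd3 and Chchd6 and 11 bases for Apoo and Apool, all shorter than the 75-base reads. Reads of Chchd2, Apoo, Immt and Samm50 could instead be shared with other loci. Chchd2 shared 658 windows of 75 bases with Zbed5, which had 75 to 132 counts per library. It shared others with 4 pseudogenes that had at most 22 counts. Apoo shared 512 such windows with Apoo-ps, which had 1 to 15 counts. Immt shared 33 windows with Gm19617, which had at most 1 count, and Samm50 shared 41 windows and 111 bases of exon on the same strand with Gm49513, for which no counts were analysed here. Exons of Chchd10 overlapped those of Mmp11 on the opposite strand by 155 bases, and Mmp11 had 7 to 28 counts against 2187 to 3786 for Chchd10.

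Chchd10 (ENSMUSG00000049422, chr10:75933130-75937747) had the highest level of the 10 genes per length of all annotated exons, at 81.0 ± 12.4 RPKM (reads scaled by library size and gene length; mean ± SD, n = 12). Chchd2 (ENSMUSG00000070493, chr5:129881156-129887470) followed at 35.1 RPKM and Chchd3 (ENSMUSG00000053768, chr6:32790976-33060260) at 19.8 RPKM, each above the next in 12 of 12 libraries. Apoo (ENSMUSG00000079508, chrX:94367117-94417093) at 13.1 RPKM and Immt (ENSMUSG00000052337, chr6:71831331-71877388) at 12.8 RPKM did not differ beyond their spread, Apoo being above Immt in 7 of 12 libraries. Samm50 (ENSMUSG00000022437, chr15:84192241-84217267) stood at 7.59 RPKM and was above Mtx2 in 11 of 12 libraries. Mtx2 (ENSMUSG00000027099, chr2:74825803-74878431) at 5.94 RPKM, Dnajc11 (ENSMUSG00000039768, chr4:151933691-151982137) at 5.67 RPKM and Chchd6 (ENSMUSG00000030086, chr6:89383146-89595652) at 5.50 RPKM overlapped, each being above the next in 8 of 12 libraries. Apool (ENSMUSG00000025525, chrX:112311334-112372755) was lowest in every library, at 1.52 RPKM. The order depended on the length used. Immt has 11353 bases of annotated exons over 14 transcripts but a longest coding transcript of 2728 bases, and Dnajc11 10678 and 3151 bases. Per length of the longest coding transcript, Chchd2 (87.0 RPKM) and Chchd10 (85.8 RPKM) could not be ordered, with Chchd2 above in 6 of 12 libraries, and Immt came next at 53.3 RPKM. They were followed by Chchd3 at 37.2, Dnajc11 at 19.2, Apoo at 13.5, Chchd6 at 12.4, Samm50 at 10.8, Mtx2 at 7.41 and Apool at 3.89 RPKM.

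**Figure D1:**
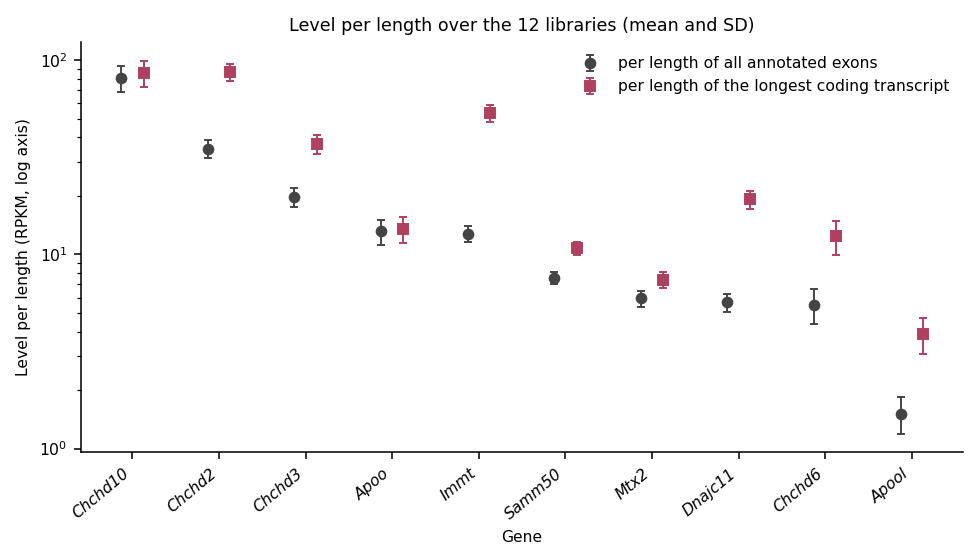
Level per length (RPKM, log axis) of the 10 genes over the 12 libraries, as mean and SD, with the length of all annotated exons (circles) or of the longest coding transcript (squares). Chchd10 and Chchd2 are at the top and Apool is at the bottom with either length, whereas Immt moves from 12.8 to 53.3 RPKM.

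Some libraries stood apart in the markers of the tissue. In MFN2 library 43 the 9 forebrain genes summed to 4730 CPM (CPM being counts scaled by TMM-adjusted library size), with Camk2a the most abundant at 1920 CPM, against 111 to 209 CPM in the other libraries. The 6 caudal Hox genes summed to 34.8 CPM in library 43 and to 196 to 251 CPM elsewhere. The 6 motor neuron genes summed to 35.5 CPM there, against 154 to 370 CPM, and the 5 oligodendrocyte genes to 7620 CPM, against at least 20169 CPM. None of these defining genes was at 0 in library 43, and 5 of the 6 Hox genes were at their lowest there, the exception being Hoxd10. Prx, a gene of myelinating Schwann cells, was at 35.5 CPM in library 43 and 50.4 CPM in library 73, and at no more than 1.22 CPM in the other 10. The 6 skeletal muscle genes summed to 271 CPM in MFN2 library 73, 249 CPM in WT library 47 and 70.1 CPM in WT library 46, and to at most 45.9 CPM in the others. MFN2 libraries 41 and 43 and WT library 44 had Ddx3y at 66.4 to 89.4 CPM, and the other 9 libraries had Xist at 258 to 402 CPM. The 4 endothelial genes summed to 85.6 to 134 CPM and the 4 blood genes to 61.4 to 289 CPM over the 12 libraries. In bulk tissue, fewer cells of a type and less RNA per cell cannot be told apart.

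Library 43 was also at the edge of the range for most of the 10 genes. It had the lowest level of the 12 libraries for Immt, Chchd3, Apool, Chchd2, Dnajc11 and Mtx2, and the highest for Chchd6, at 21.8 CPM against 11.3 to 16.5 CPM in the rest. Apoo (16.2 CPM), Chchd10 (115 CPM) and Samm50 (48.5 CPM) were within the range of the other 11 libraries. The part of tissue makeup in these values was not tested, and the comparisons of libraries 41 to 43 are given with and without library 43.

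When all 8 MFN2 mice were set against the 4 WT mice, 0 of the 10 genes reached an FDR (Benjamini-Hochberg) of 0.05 by edgeR's quasi-likelihood test. The same was true of all 15942 genes tested, of which 0% passed. At an unadjusted p under 0.05, Chchd10 alone of the 10 was counted, against 15.0% of all genes, and DESeq2 called Chchd10 alone of the 10 (FDR = 0.0447), beside 200 genes in all. The groups overlapped for all 10 genes, while 2.05% of all genes had no overlap. The median log2 fold change was -0.06 over the 10 genes and 0.00 over all genes tested. Of the 10, 4 had a positive and 6 a negative log2 fold change, and these values ran from -0.36 to 0.12. A miss of the threshold does not show equal levels, and each interval below bounds the difference.

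Chchd10 had the lowest FDR of the 10 genes. It averaged 117 ± 11.4 CPM (SD) over the 8 MFN2 libraries against 148 ± 15.6 CPM over the 4 of WT, which gave a log2 fold change of -0.34 (SE 0.0856, 95% interval -0.52 to -0.15, FDR = 0.254). WT libraries 44 to 47 stood at 142, 153, 168 and 131 CPM. MFN2 libraries 41 to 43 stood at 133, 136 and 115 CPM, and libraries 72 to 76 at 117, 109.7, 104, 111 and 112 CPM. Thus 6 of the 8 MFN2 libraries lay below every WT library, and the other 2, libraries 41 and 42, lay just above the lowest WT library. Among the 9 libraries with Xist RNA the log2 fold change was -0.39 (FDR = 0.0187), a comparison added after the data were seen, in which 2206 of 15679 genes were called. Of its 6 MFN2 libraries 5 were of the second run, and its 3 WT libraries were of the first, so run and genotype are largely confounded in it too. Without libraries 43 and 73 it was -0.32 (FDR = 0.144), likewise added.

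Its paralog Chchd2 stood at 77.1 ± 7.62 CPM in MFN2 and 84.7 ± 8.20 CPM in WT libraries (log2 fold change -0.14, 95% interval -0.32 to 0.05, FDR = 0.442), with 4 of 8 MFN2 libraries below every WT library. Apool had the most negative log2 fold change of the 10, -0.36 (SE 0.169, 95% interval -0.73 to 0.0022, FDR = 0.336), on few counts. Its WT libraries stood at 6.07, 5.98, 6.20 and 6.57 CPM. In MFN2 libraries 41 to 43 it was at 5.80, 3.93 and 3.19 CPM, and in libraries 72 to 76 at 3.87, 4.82, 5.31, 5.15 and 6.53 CPM. All MFN2 libraries other than library 76 were therefore below the WT range, which was narrow. Apoo, which like Apool lies on the X chromosome, ran from 13.0 to 21.4 CPM (median 17.1) in MFN2 and from 14.2 to 16.9 CPM in WT, with a log2 fold change of 0.10 (95% interval -0.17 to 0.38).

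The core gene Immt had close means in the genotypes, 146 ± 17.2 CPM in MFN2 and 144 ± 5.54 CPM in WT mice (log2 fold change 0.02, 95% interval -0.18 to 0.22, FDR = 0.922), but a wider spread among MFN2 mice. No MFN2 library fell within the WT range of 139 to 152 CPM, since 3 were below it and 5 above it. The 3 below were libraries 41 to 43, and the 5 above were libraries 72 to 76, so that the mean hides a split by the run of library numbers. The margin was narrow on both sides. Library 42 was at 138.5 CPM against a WT minimum of 139.3 CPM, and library 73 at 152.7 CPM against a WT maximum of 151.8 CPM. Chchd3 (log2 fold change 0.02), Samm50 (-0.07), Dnajc11 (0.12) and Mtx2 (-0.07) had 95% intervals within -0.27 to 0.32, and Chchd6 (-0.05) one of -0.39 to 0.30. Without library 43 the log2 fold change was 0.067 for Immt, 0.076 for Chchd3, -0.17 for Chchd6 and -0.035 for Mtx2, and none of these genes was called. With a covariate for the run of numbers, the sign turned for Immt, Chchd3, Chchd6, Apoo and Dnajc11. For Chchd10 it was kept, at -0.21 (FDR = 0.307). No WT library is of the second run, so this fit takes the genotype difference from libraries 41 to 43 against WT alone. It largely repeats the comparison of those libraries given below, and cannot adjust libraries 72 to 76 for their run.

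**Figure D2:**
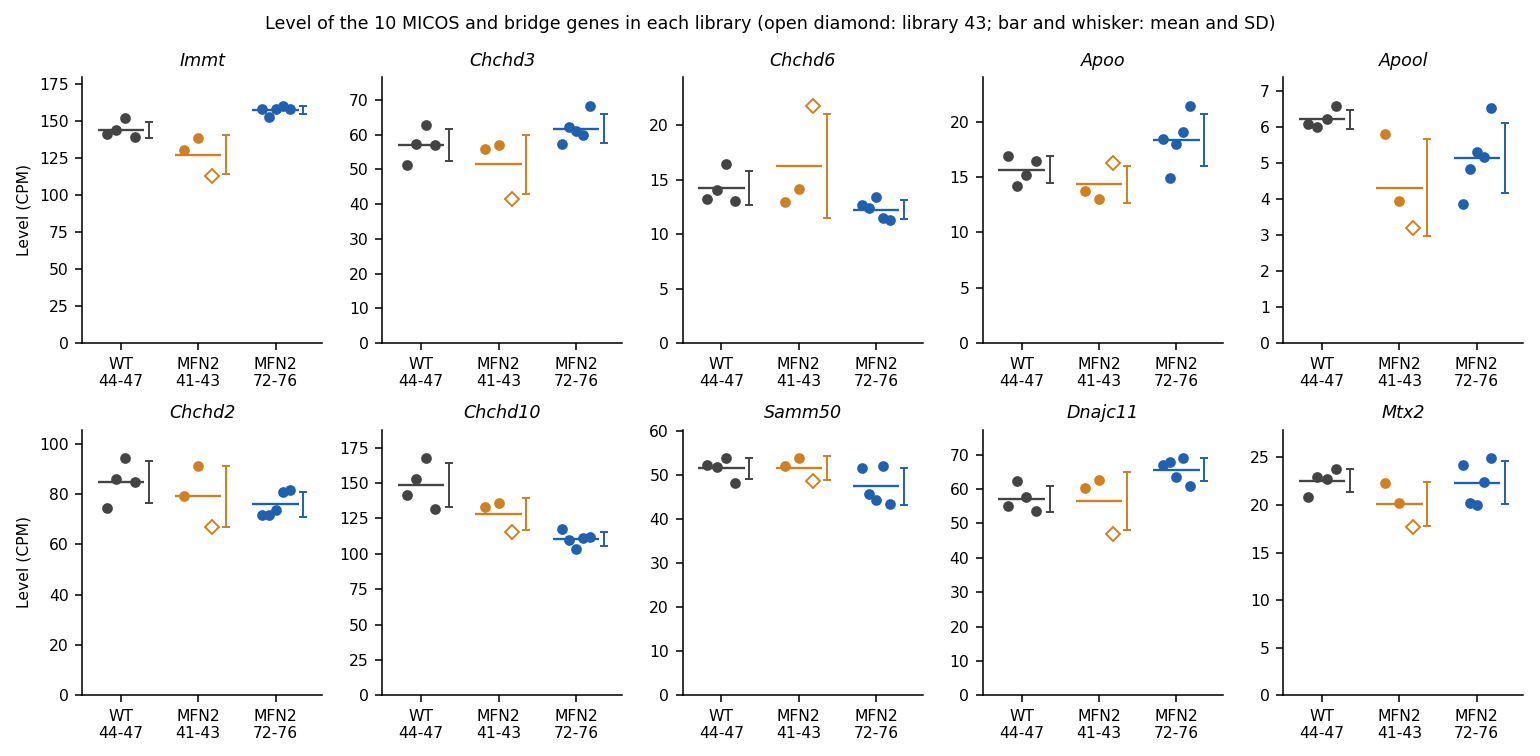
Level (CPM, from 0) of each gene in every library, by WT libraries 44 to 47, MFN2 libraries 41 to 43 and MFN2 libraries 72 to 76. Points are libraries, the bar and whisker are mean and SD, and the open diamond is library 43. Immt lies below the WT range of 139 to 152 CPM in libraries 41 to 43 and above it in libraries 72 to 76, narrowly so in libraries 42 and 73. Chchd10 is at 104 to 117 CPM in libraries 72 to 76 against 131 to 168 CPM in WT.

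The MFN2 libraries of each run of numbers were next compared with WT separately, within the first run for libraries 41 to 43 and across runs for libraries 72 to 76. Both comparisons use the same 4 WT libraries, so they are not independent, and they differ in the number of MFN2 libraries. Within the first run, MFN2 libraries 41 to 43 against WT, 0 of the 10 genes were called, against 0.00658% of the 15200 genes tested (1 gene). DESeq2 called none of the 10 either. At an unadjusted p under 0.05 Apool was counted, against 7.12% of all genes. Immt and Apool had no overlap between the groups, 2 of 10 against 8.97% of all genes. Immt was at 130, 139 and 113 CPM against a WT minimum of 139.3 CPM, with library 42 at 138.5 CPM close to that limit (log2 fold change -0.16, 95% interval -0.37 to 0.04, FDR = 0.622). Apool had a log2 fold change of -0.51 (95% interval -0.99 to -0.03, FDR = 0.622). Chchd10 stood at -0.20 (95% interval -0.45 to 0.05, FDR = 0.622), with only library 43 below every WT library. The other log2 fold changes were -0.14 for Chchd3, 0.21 for Chchd6, -0.11 for Apoo, -0.09 for Chchd2, 0.01 for Samm50, -0.0025 for Dnajc11 and -0.16 for Mtx2. Most of these values moved without library 43, which left 2 MFN2 libraries and again 0 calls. The log2 fold change was then -0.090 for Immt, -0.0086 for Chchd3, -0.060 for Chchd6, -0.22 for Apoo and -0.34 for Apool. It was 0.017 for Chchd2, -0.13 for Chchd10, 0.048 for Samm50, 0.11 for Dnajc11 and -0.078 for Mtx2. The sign thus turned for Chchd6, Chchd2 and Dnajc11, and Chchd3 was close to 0.

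Across runs, for MFN2 libraries 72 to 76 against WT, 3 of the 10 genes passed an FDR of 0.05 in edgeR's quasi-likelihood test, against 23.8% of the 15743 genes tested. Immt and Dnajc11 rose, 2 of 10 against 11.1% of all genes that rose. Chchd10 fell, 1 of 10 against 12.7% of all genes that fell. Immt and Chchd10 had no overlap between the groups, 2 of 10 against 19.8% of all genes. These shares are close to those over all genes, so the number of calls is not particular to MICOS and bridge genes. The median log2 fold change was -0.07 over the 10 genes and 0.00 over all genes.

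Chchd10 fell by 0.42 on the log2 scale (SE 0.0660, 95% interval -0.57 to -0.28, FDR = 0.00121 by edgeR), from 148 to 111 ± 4.98 CPM (SD, n = 5), or 0.746 of the WT level. All 5 MFN2 libraries were below every WT library, and the call was kept under every alternative run, with log2 fold changes from -0.48 to -0.35. Dnajc11 rose by 0.20 (SE 0.0569, 95% interval 0.07 to 0.32, FDR = 0.0261 by edgeR). It stood at 66.9, 67.8, 63.6, 69.0 and 61.0 CPM in libraries 72 to 76 and at 55.2, 62.3, 57.8 and 53.6 CPM in WT, so that library 76 lay within the WT range and the other 4 above it. Its call was lost without library 75 (FDR = 0.0599), 46 (FDR = 0.0582) or 47 (FDR = 0.0706) and in a fit of all 12 libraries (FDR = 0.165). Immt rose by 0.13 (SE 0.0426, 95% interval 0.03 to 0.22, FDR = 0.0484 by edgeR). Its levels of 158, 153, 158, 160 and 158 CPM in libraries 72 to 76 were close to each other and above the WT values of 141, 144, 152 and 139 CPM, though library 73 at 152.7 CPM was just above WT library 46 at 151.8 CPM. This call was lost without any one of 7 of the 9 libraries (all but 73 and 46), under both other filters and in one fit of all 12 libraries (FDR = 0.215), so it is borderline.

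The remaining 7 genes did not pass. Chchd6 had a log2 fold change of -0.21 (95% interval -0.41 to -0.02, FDR = 0.0985), with 4 of 5 MFN2 libraries below every WT library, while Chchd3 had 0.11 (95% interval -0.03 to 0.25, FDR = 0.238). Apoo had 0.23 (95% interval 0.02 to 0.44, FDR = 0.109), with 4 of 5 above every WT library, and Apool had -0.28 (95% interval -0.58 to 0.02, FDR = 0.164), with 4 of 5 below. Chchd2 had -0.16 (95% interval -0.31 to -0.01, FDR = 0.106), Samm50 -0.12 (FDR = 0.199) and Mtx2 -0.02 (FDR = 0.908). The log2 fold changes of Chchd3 and Chchd6, and of Apoo and Apool, were thus of opposite sign here, but none of these genes passed. The intervals of Chchd3 and Apool included 0. In libraries 41 to 43 against WT, Apoo (-0.11) and Apool (-0.51) had the same sign. Chchd3 (-0.14) and Chchd6 (0.21) had opposite signs there, but the other way round. How often other gene pairs differ in sign was not computed. Scaling by library size alone moved the median of all genes to 0.07 and added Chchd3 (0.18) and Apoo (0.30) to the calls, with 4167 of 15743 genes called in all. In these 5 libraries the astrocyte genes summed to 1952 to 3133 CPM against 3442 to 4454 CPM in WT, and 3 of 5 were called lower. Gfap was the most abundant of them in these libraries, and none was at 0. The microglial genes Cx3cr1 (log2 fold change -0.51), P2ry12 (-0.29), Tmem119 (-0.76) and Csf1r (-0.33) were also called lower. The 5 neuronal genes summed to 2523 to 2839 CPM against 2741 to 3153 CPM, and went both ways. Snap25, the most abundant, was at 1472 to 1623 CPM against 1591 to 1945 CPM in WT. Syt1 was at 176 to 234 CPM against 111 to 181 CPM in WT. The part of these cell types in the calls was not tested.

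**Figure D3:**
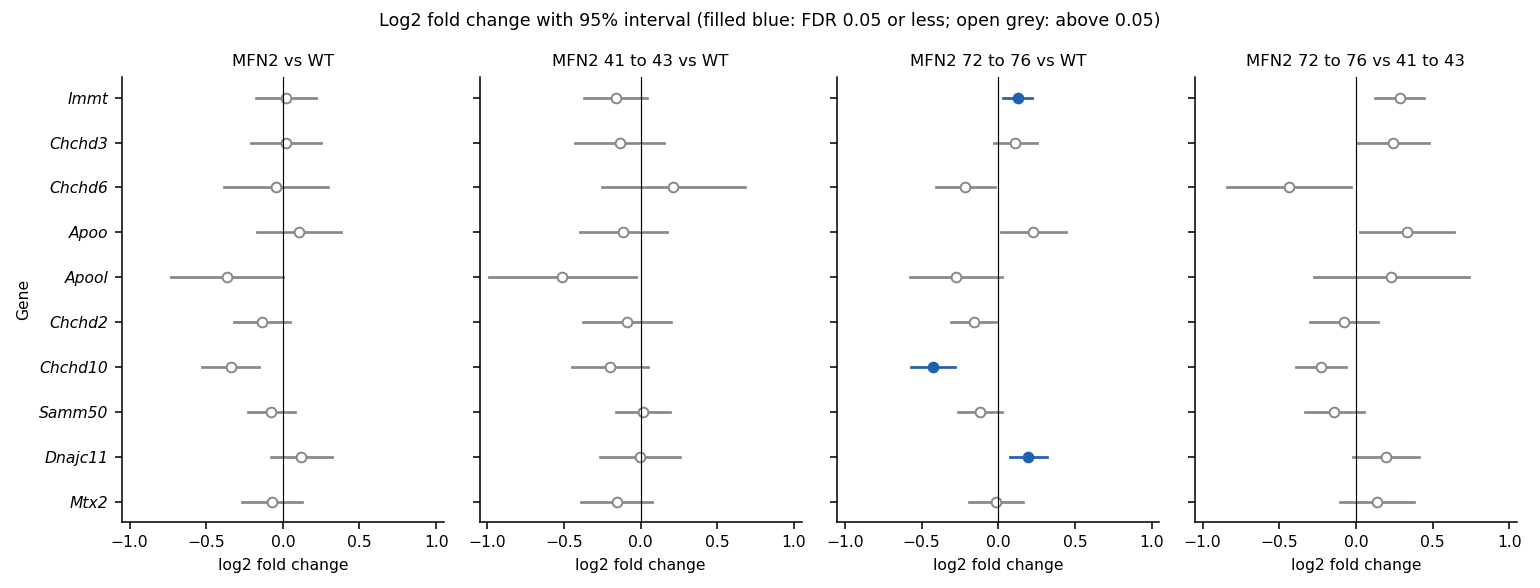
Log2 fold change (x axis) of each gene in the 4 comparisons, with 95% interval. Filled blue points have an FDR of 0.05 or less. The only 3 such points are Immt, Chchd10 and Dnajc11 in MFN2 libraries 72 to 76 against WT, and Immt stands at -0.16 for libraries 41 to 43 and at 0.13 for libraries 72 to 76.

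The difference between the runs was tested directly by comparing MFN2 libraries 72 to 76 with MFN2 libraries 41 to 43. Libraries 41 and 43 held Ddx3y RNA, and libraries 42 and 72 to 76 Xist RNA, so run and sex-linked RNA are largely confounded. None of the 10 genes passed an FDR of 0.05 in edgeR, against 2.19% of 15633 genes. At an unadjusted p under 0.05 there were 5 of 10 (Immt, Chchd3, Chchd6, Apoo and Chchd10), against 24.6% of all genes, and DESeq2 called Immt alone of the 10 (FDR = 0.00655), beside 1795 genes in all. Immt and Chchd3 had no overlap, 2 of 10 against 18.4% of all genes. For Chchd3 the gap was narrow, from 57.0 CPM in library 42 to 57.2 CPM in library 72, and its log2 fold change of 0.24 (FDR = 0.191) was 0.12 (FDR = 0.271) without library 43. Immt had a log2 fold change of 0.29 (95% interval 0.12 to 0.45, FDR = 0.0713), and the value was 0.22 (FDR = 0.0226) without library 43. Chchd10 had -0.23 (95% interval -0.39 to -0.07, FDR = 0.110), and -0.29 (FDR = 0.00959) without library 43. Apoo had 0.33 (95% interval 0.03 to 0.64, FDR = 0.172), and 0.45 (FDR = 0.0357) without library 43. Chchd6 had -0.44 (95% interval -0.84 to -0.03, FDR = 0.177), and -0.15 without library 43. Without that library 3 of the 10 genes were called beside 2375 of 15509 genes in all, and libraries 41 and 42 alone stood for the first run.

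Ratios between paralogs do not depend on how libraries are scaled. Per length of all annotated exons, Chchd10 stood to Chchd2 as 2.20 ± 0.201 (SD, n = 8) in MFN2 and 2.53 ± 0.213 (SD, n = 4) in WT mice. The WT ratios were 2.75, 2.56, 2.56 and 2.24, those of libraries 41 to 43 were 2.42, 2.15 and 2.48, and those of libraries 72 to 76 were 2.36, 2.20, 2.03, 1.98 and 1.97. The groups overlapped, and 5 MFN2 libraries lay below the lowest WT ratio. Chchd6 stood to Chchd3 as 0.602 in library 43 and as 0.267 and 0.285 in libraries 41 and 42. In libraries 72 to 76 it was 0.255, 0.230, 0.253, 0.221 and 0.190, all below the WT ratios of 0.297, 0.281, 0.302 and 0.263. Apool stood to Apoo as 0.129, 0.152, 0.147 and 0.144 in WT libraries. In libraries 72 to 76 it was 0.0754 to 0.116, all below WT, and in libraries 41 to 43 it was 0.152, 0.109 and 0.0708. All these ratios are per length of all annotated exons. Per length of the longest coding transcript, Chchd10 to Chchd2 averaged 0.939 in MFN2 and 1.08 in WT mice. Apool to Apoo then averaged 0.260 and 0.356, and Chchd6 to Chchd3 0.346 and 0.344. The length used scales a ratio alike in every library, so the order of libraries is the same. No test was run on the ratios, and the share of other gene pairs without overlap was not computed, while 19.8% of single genes had none in libraries 72 to 76 against WT.

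**Figure D4:**
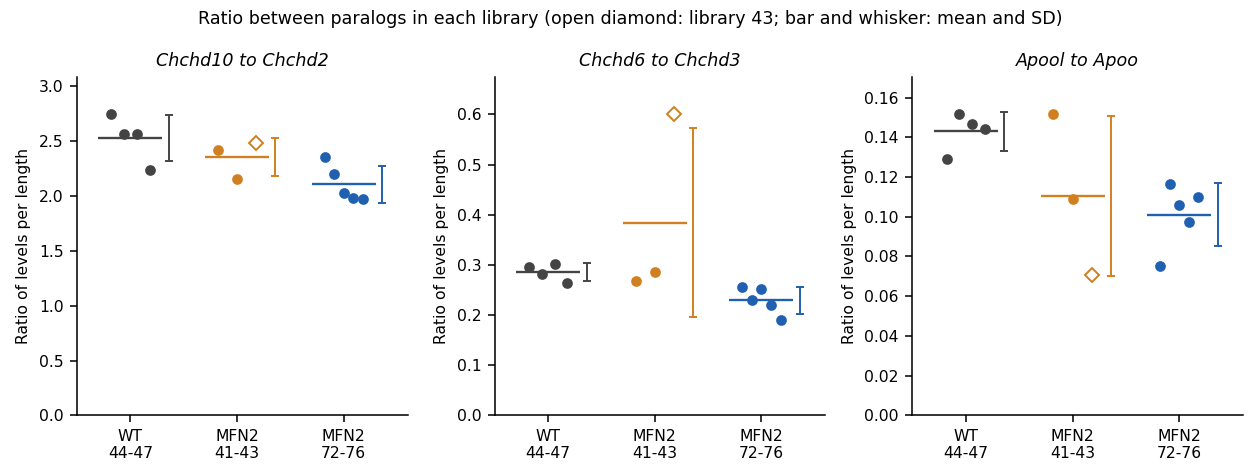
Ratio of levels per length of all annotated exons between paralogs (y axis, from 0) in every library, by group. Points are libraries, the bar and whisker are mean and SD, and the open diamond is library 43. Library 43 is highest for Chchd6 to Chchd3 (0.602), and libraries 72 to 76 lie below all WT libraries for Chchd6 to Chchd3 and for Apool to Apoo.

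Related genes were described from lists that share steps of the same pathway, and their counts in libraries 72 to 76 against WT stand beside 11.1% of all genes called higher and 12.7% called lower. Of 6 other MICOS and bridge genes, 1 fell and 0 rose in libraries 72 to 76 against WT, with a median log2 fold change of -0.11 against 0.00 over all genes. It was Mtx3, a metaxin (-0.18, FDR = 0.0154 by edgeR, from 65.4 to 57.9 CPM). The small MICOS subunits Micos10 (-0.11, FDR = 0.194) and Micos13 (-0.12, FDR = 0.337), and Mtx1 (0.17, FDR = 0.235), did not pass. Without WT library 44, 3 genes of this list were called lower, and the share of all genes in that fit is not given here. Of 12 genes of crista shape, 4 fell and 0 rose, with a median of -0.07, and no test of the list was made. The largest fall was that of Phb, a prohibitin of the inner-membrane scaffold (-0.46, FDR = 0.00102, from 46.9 to 34.1 CPM). Atp5k, a subunit of the ATP synthase dimer (-0.34, FDR = 0.00790), Stoml2, a scaffold protein that binds prohibitins (-0.26, FDR = 0.0133), and Ghitm, an inner-membrane protein of crista structure (-0.16, FDR = 0.0296), also fell. Opa1, the inner-membrane fusion dynamin, stood at 268 ± 9.65 CPM against 252 ± 12.6 CPM (0.09, FDR = 0.217).

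Of 11 genes of the disulfide relay and other twin CX9C proteins, 1 rose and 1 fell, close to the 11.1% and 12.7% over all genes, with a median of 0.07. Aifm1, which holds the import receptor Chchd4 at the inner membrane, rose (0.22, FDR = 0.0149), and Cmc2, a cytochrome oxidase assembly factor, fell (-0.32, FDR = 0.0127), while Chchd4 itself did not pass (0.11, FDR = 0.338). Of 10 genes of mitochondrial content, 1 rose and 3 fell, beside the same 11.1% and 12.7%, with a median of -0.04. Hspa9, the matrix chaperone of the import motor, rose (0.18, FDR = 0.0147). Timm23, the inner-membrane import channel (-0.32, FDR = 0.0191), Vdac1, an outer-membrane pore (-0.21, FDR = 0.00416), and Cs, citrate synthase (-0.18, FDR = 0.0139), fell. In edgeR, none of the genes of these 4 lists had an FDR of 0.05 or less in libraries 41 to 43 against WT or between all MFN2 and WT mice. In the latter comparison DESeq2 called 1 gene of crista shape and 1 of the twin CX9C list lower, Phb and Cmc2. With the libraries that held Xist RNA alone, edgeR called 1, 2, 1 and 1 genes of the 4 lists lower, beside 2206 of 15679 genes called in either direction. Scaling by library size alone turned no sign of a called gene, but Mtx3, Ghitm, Cs and Timm23 were then not called, and Ghitm was called in only 5 of 15 alternatives. The same scaling added Opa1 and Vdac2 as higher. In one fit of all 12 libraries 0 genes of the 4 lists were called higher, so that Aifm1 and Hspa9 were lost. Mtx3, Ghitm and Cs were not called there either. Leaving out a library also moved the counts. Without MFN2 library 74, 1 gene of mitochondrial content was called lower, and without WT library 46, 2 were. Without WT library 44, 2 genes of the twin CX9C list were called lower. The shares of all genes called in these fits are not given here.

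**Figure D5:**
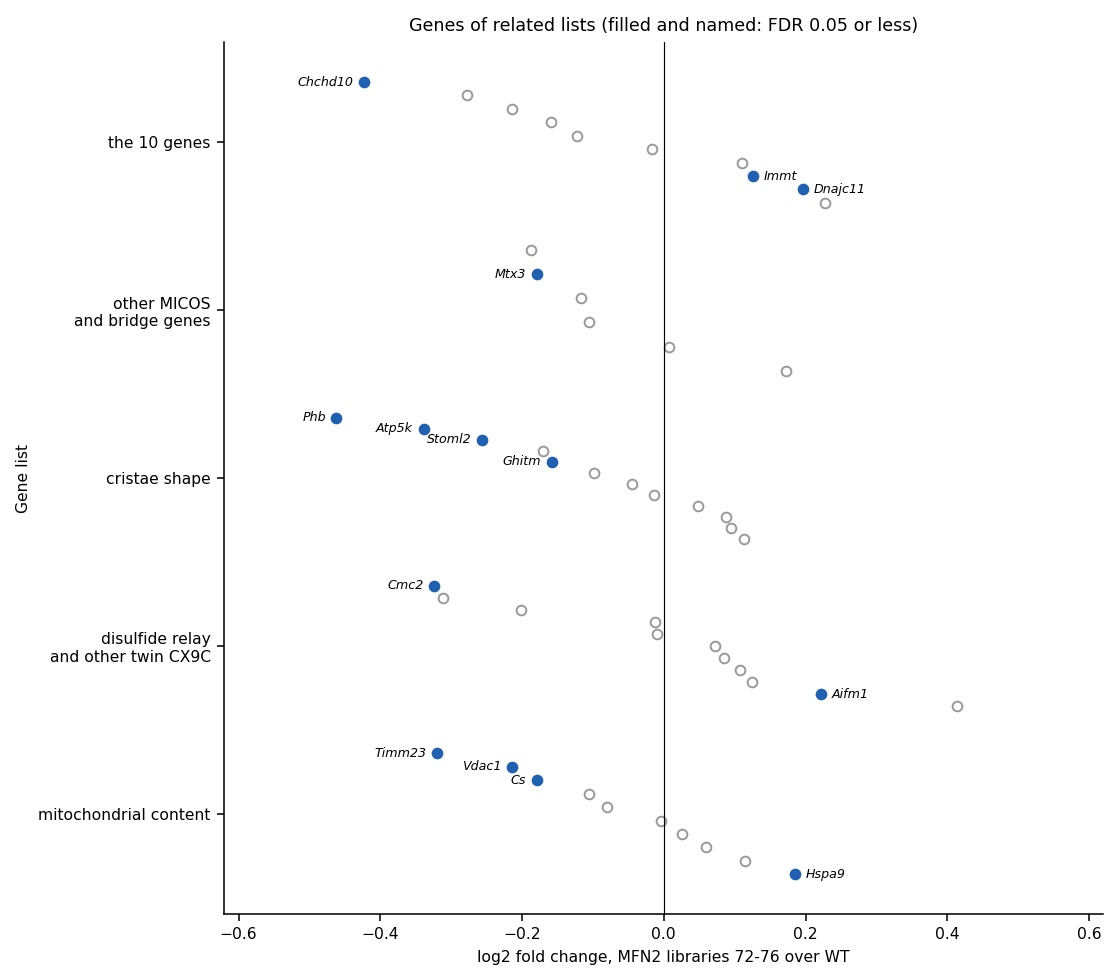
Log2 fold change in MFN2 libraries 72 to 76 over WT (x axis) of the 10 genes and of 4 lists of related genes. Points are genes, spread within a list for legibility, and filled, named points have an FDR of 0.05 or less. Chchd10 (-0.42) and Phb (-0.46) are farthest to the left of the called genes.

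Likeness was ranked over the 15942 genes that passed the filter, and its spread over all of them is not given here. The genes whose log2 CPM was most like that of Chchd10 over the 12 libraries were Cyc1 (Pearson r = 0.958), Cox14 (0.956), Acyp1 (0.945), Fam189b (0.942) and Rabac1 (0.941). Without library 43 they were P4htm (0.976), CT010467.1 (0.967), Panx2 (0.967), Ldhb (0.965) and Atp5b (0.965), so none of the first 5 was kept. For Immt they were Cdh18 (0.970), Cend1 (0.968), Hecw1 (0.967), Xrcc5 (0.965) and Eif5 (0.964), and without library 43 Snord55 (0.959), P2rx5 (0.952), Mrpl39 (0.950), Atp5mpl (0.947) and D430041D05Rik (0.945). These values are descriptions over libraries that differ in depth and tissue makeup, and the part of either in them was not tested.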

How the data were processed

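Lumbar spinal cord RNA of 12 mice was sequenced as 75-base paired reads. The authors deposited counts of reads per Ensembl gene, not normalized. The submitters' processing notes name bcl2fastq, STAR, edgeR and GRCm38.p6. How reads were counted, and with which strand setting, is not given in the sources used here. The labels name a SMARTER mRNA-Seq kit, whereas the study's methods name a stranded total RNA kit under a heading on 3′ sequencing. If reads were biased to the 3′ end, levels per length would be affected. The human transgene was not analysed here.

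Of 49548 genes, 49289 matched GENCODE M21, which gave names, positions and lengths. Each comparison was fitted on its own libraries in edgeR 4.0.16 (R 4.3.3), with genes above 1 CPM in at least 3 libraries, TMM factors and the robust quasi-likelihood test. P-values were adjusted by Benjamini-Hochberg over all genes tested, with a threshold of 0.05. SE was derived from the F statistic, and the 95% interval from the t quantile of the fit. DESeq2 1.42.0, other filters and scalings, a covariate, a fit of all libraries and leaving out each library were alternatives. Likeness used log2 CPM with a prior count of 2. The fit was tested on simulated data, and the outcome is not reported here.

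The genes and lists were chosen with earlier results of these data known. Besides the 10 genes, the text names Micos10, Micos13, Mtx1 and Opa1, up to 6 genes of each related list that passed the threshold in libraries 72 to 76 against WT with the largest change, and the 5 genes most like Chchd10 and Immt. Some marker genes, and the sums that need them, are not reported here. Chchd4 is named besides and was chosen after its values were seen. Libraries of one genotype differed by at least 5.34 times the counting noise (chi-square per degree of freedom), so none was a duplicate.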

Additional observations from a re-analysis of the deposited data

Results flagged for a closer look

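A lowest or highest library lay far from its group by Dixon's ratio (the gap to the nearest library over the whole range) for 3 of the 30 sets of libraries examined, where chance gives about 1 in 20, or 1.5 of 30. All 3 were MFN2 library 43 among the 8 MFN2 libraries. It was lowest for Chchd3, at 41.6 CPM against 55.8 CPM or more in the others (ratio 0.532). It was lowest for Dnajc11, at 46.9 CPM against 60.2 CPM or more (ratio 0.603). It was highest for Chchd6, at 21.8 CPM against 14.1 CPM or less (ratio 0.727). The same library had 4730 CPM of forebrain genes and 34.8 CPM of caudal Hox genes, and the part of tissue makeup in these values was not tested.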

How the results depend on the processing

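The number of the 10 genes called depended on the model. Between all MFN2 and WT mice it rose from 0 to 1 (Chchd10) with DESeq2 and, added after seeing the data, with libraries holding Xist RNA alone. For libraries 72 to 76 against WT it went from 3 to 5 with library size scaling and to 1 in one fit of all 12 libraries, and leaving out a library gave 1 (without MFN2 75 or WT 47) to 4 (without MFN2 73), where 2713, 3227 and 3163 genes were called in all. For libraries 72 to 76 against 41 to 43 it went from 0 to 1 (Immt) with DESeq2 and in one fit of all 12, and leaving out a library gave 0 to 3 (without MFN2 43). Over all genes, edgeR called 0 between MFN2 and WT mice and DESeq2 200. In libraries 72 to 76 against WT they called 3746 and 4252, library size scaling gave 4167, and one fit of all 12 called 1224. In libraries 72 to 76 against 41 to 43 they called 342 and 1795, one fit of all 12 called 1339, and leaving out library 43 gave 2375. With a covariate for the run of numbers, the MFN2 log2 fold change against WT turned for Immt (-0.18), Chchd3 (-0.15), Chchd6 (0.19), Apoo (-0.13) and Dnajc11 (-0.016). That fit takes the genotype difference from libraries 41 to 43 against WT alone, since no WT library is of the second run. The other reversals were of values near 0: with library size scaling Chchd6 (0.0031) between MFN2 and WT mice, Dnajc11 (0.0041) in libraries 41 to 43 and Mtx2 (0.054) in libraries 72 to 76, and in libraries 41 to 43 Dnajc11 (0.00038) with filterByExpr and Samm50 (-0.0013) in one fit of all 12. Leaving out a library moved Chchd3 from -0.029 (without WT 44) to 0.076 (without MFN2 43) and Chchd6 from -0.17 (without MFN2 43) to 0.036 (without WT 46) between MFN2 and WT mice. In libraries 41 to 43 against WT it moved Chchd2 from -0.20 to 0.017, Chchd6 from -0.060 to 0.36, Dnajc11 from -0.082 to 0.11 and Samm50 from -0.021 to 0.048. Mtx2 ran from -0.053 to 0.027 in libraries 72 to 76 against WT, and Chchd2 from -0.17 to 0.028 against libraries 41 to 43. The causes were not tested. No paired analysis was made because the labels used here give no litter or other pairing of mice. Apool, with 68 to 152 counts, is the gene that depth limits most.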
